A study of Mus musculus with 10 samples.

Results

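The genes described here are 10 steps of glycolysis and of the transport at its 2 ends: *Slc2a1*, *Hk2*, *Pfkl*, *Aldoa*, *Gapdh*, *Pgk1*, *Eno1*, *Pkm*, *Ldha* and *Slc16a3*. They form a list of gene names whose rule uses no measured value, though the list was drawn up with earlier results of these data known. They were read from the 55453 genes of the deposited count table, and all 10 passed the filter on low counts that left 14481 genes to test. Female 3xTg AD mice older than 15 months provided the hippocampi, from which microglia were sorted as CD45int CD11b+ cells, and their RNA was sequenced in 10 libraries. Of these, 5 came from mice given PBS (titles 388_1 to 388_5) and 5 from mice given GA (titles 394_1, 394_2, 400_1, 400_2 and 400_3). GA is glatiramer acetate, a synthetic peptide drug used in multiple sclerosis, which the labels give as 0.1 mg a week over about 8 weeks. All mice of both groups carried the 3xTg genotype from a homozygous colony, with transgenes that include mutant human APP and MAPT under a Thy1 promoter, which is mainly active in neurons, so no library here came from a non-transgenic animal. The first number of a title differs between the groups throughout, so that whatever it stands for and the treatment cannot be told apart. Nothing in the labels says whether a library held cells of 1 animal or of several, and the p-values below measure the spread between these libraries.

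Glycolysis splits glucose into pyruvate in the cytosol. Glucose enters through GLUT transporters, hexokinase traps it by phosphorylation, phosphofructokinase commits it to the pathway, and the steps from aldolase to pyruvate kinase turn the sugar into pyruvate with a gain of ATP. Lactate dehydrogenase then reduces pyruvate to lactate, which monocarboxylate transporters carry out of the cell together with a proton. In microglia and other macrophages, many of these genes are known as targets of the hypoxia-inducible factor HIF-1 and are known to be raised in inflammatory activation.

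HIF-1 is known to bind a short element with the core ACGTG, and for that reason the 250 bases upstream of the annotated start sites were searched for ACGTG and its reverse complement CACGT. All 10 genes matched at least 1 entry of the RefSeq promoter table for GRCm38.p6, with 16 windows in all because *Aldoa*, *Eno1*, *Pkm* and *Ldha* have several start sites. The core stood in 8 of these 16 windows, beside 16.6% of all 32851 windows of the same length. The 2 windows of *Aldoa* with the core overlap and hold the same match. By gene, 7 of the 10 had the core in at least 1 window, and no share by gene was taken over all genes. The genes without it in any window were *Pfkl*, *Gapdh* and *Eno1*. The Sp1-type motif GGGCGG, searched on both strands, stood in 10 of the 16 windows, belonging to 8 of the 10 genes, and in 32.7% of all windows. Here too, overlapping windows of *Aldoa* and of *Eno1* share matches. A match is a string of letters and not a measured site. The windows of *Ldha*, *Pgk1* and *Hk2* are shown because each holds the core more than once and overlaps no annotated exon. They run 5′ to 3′ on the strand of the gene and end at the base before the start site. Capitals mark ACGTG and CACGT.
Ldha (GRCm38.p6, chr7:46845554-46845803, plus strand): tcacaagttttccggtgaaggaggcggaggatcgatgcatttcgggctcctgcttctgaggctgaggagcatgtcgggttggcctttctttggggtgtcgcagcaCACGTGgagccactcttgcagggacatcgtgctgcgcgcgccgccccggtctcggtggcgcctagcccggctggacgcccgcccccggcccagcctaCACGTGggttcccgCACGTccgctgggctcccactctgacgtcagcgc
Pgk1 (GRCm38.p6, chrX:106186850-106187099, plus strand): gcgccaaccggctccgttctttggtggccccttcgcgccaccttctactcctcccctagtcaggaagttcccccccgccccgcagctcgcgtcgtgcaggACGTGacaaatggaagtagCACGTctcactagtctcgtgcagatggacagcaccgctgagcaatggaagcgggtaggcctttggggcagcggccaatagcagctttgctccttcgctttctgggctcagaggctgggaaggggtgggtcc
Hk2 (GRCm38.p6, chr6:82774455-82774704, minus strand): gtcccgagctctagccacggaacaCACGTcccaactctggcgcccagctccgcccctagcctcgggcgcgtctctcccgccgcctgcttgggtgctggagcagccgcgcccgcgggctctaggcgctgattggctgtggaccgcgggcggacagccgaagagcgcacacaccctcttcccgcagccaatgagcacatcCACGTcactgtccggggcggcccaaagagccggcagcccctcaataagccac
In *Ldha* the core lies inside the palindrome CACGTG at 2 places, which counts each of them once on either strand, and it occurs once more 34 bases before the start site. CACGTG stood in 6.02% of all windows and in none of the windows of the other 9 genes. In *Pgk1* the matches begin 150 and 131 bases before the start site, and in *Hk2* 226 and 52 bases before it.

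Total counts ran from 32332185 to 37708856 in the PBS libraries and from 33300102 to 38764643 in the GA libraries. The 10 genes together took 0.203% to 0.237% of the counts of a library, and a single gene was counted 671 to 18909 times, so that counting error was small beside the spread between libraries. The values below are CPM, a gene's share of the library's counts, with the totals corrected for composition by TMM factors. *P2ry12*, *Tmem119* and *Cx3cr1*, which define homeostatic microglia, were each counted at least 177211 times in every library. A pair of PBS libraries stood apart over the whole table. The chi-square per degree of freedom between the counts of a pair of libraries was 42.3 to 50.9 for pairs with 388_4 and 30.1 to 49.3 for pairs with 388_5, while the 28 pairs without them lay between 13.01 and 27.6.

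None of the 10 genes passed the test for a difference between GA and PBS, and for none did the 5 GA values lie clear of the 5 PBS values. Across the table edgeR's quasi-likelihood test called 0% of the 14481 genes at an adjusted p under 0.05. At an unadjusted p under 0.05 it had 374 genes higher and 459 lower in GA, which is 2.58% and 3.17% of the genes tested, and 0 of the 10 glycolytic genes were among them. DESeq2 called 2 genes of the whole table and 0 of the 10. Groups that did not overlap were seen for 0.891% of all genes. By the sign of the fitted difference 6 of the 10 were higher and 4 lower in GA, with a median log2 fold change of 0.0069, beside 0.00020 over all genes tested. The intervals bound what a difference could have been: the 95% interval of each of the 10 stayed within a 1.5-fold change in either direction, as it did for 62.9% of all genes tested, and the bound farthest from no change was 1.32-fold, for *Pgk1*. In bulk RNA of sorted cells, fewer cells of a type and less RNA per cell cannot be told apart.

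**Figure D1:**
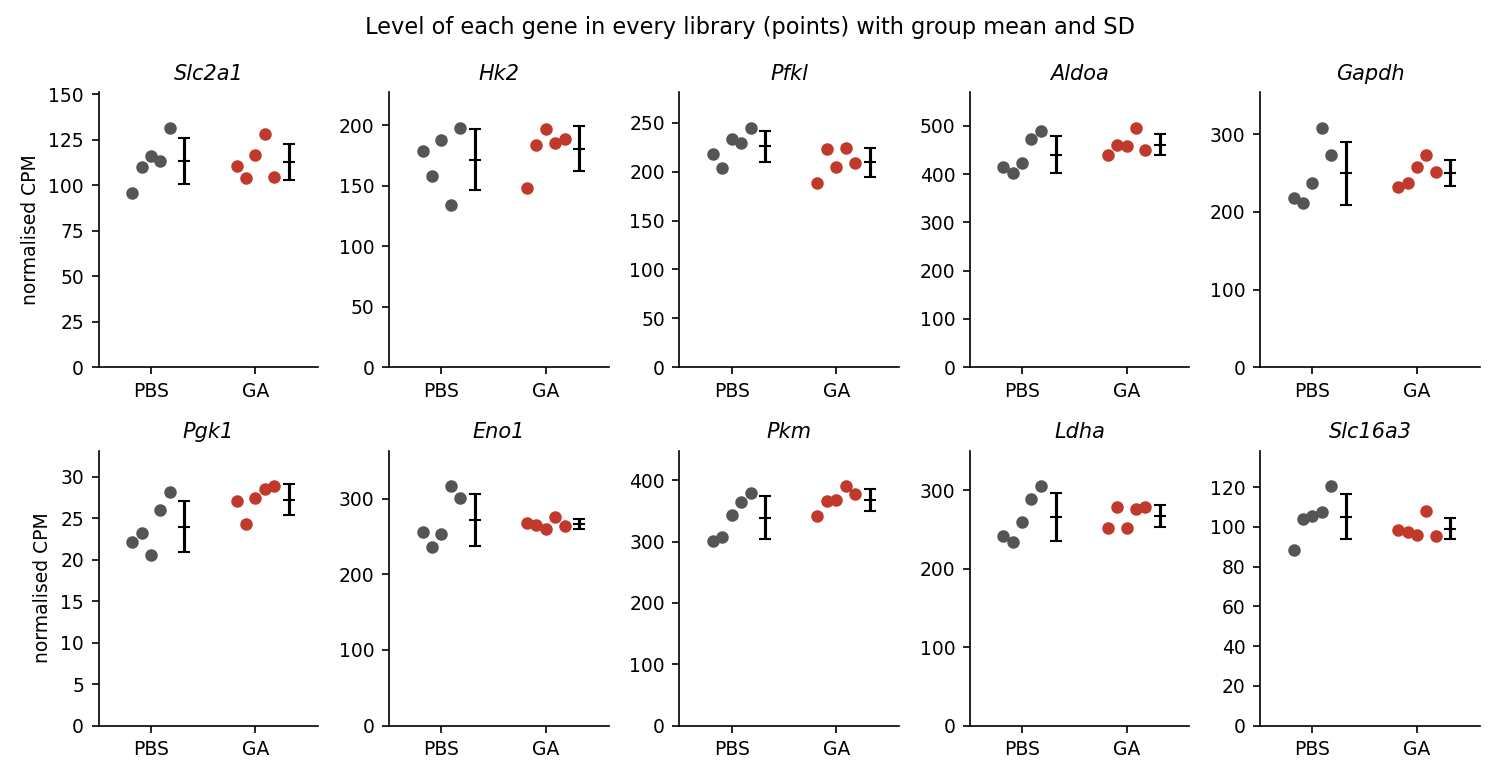
Normalised CPM of the 10 genes (vertical axes, from 0) in the 5 PBS and the 5 GA libraries (horizontal axes, points in title order), with the group mean and SD as bars. The groups overlap in every panel, and the PBS points are the more widely spread, most of all for Eno1, at 236 to 316 CPM against 259.6 to 276 CPM in GA.

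Uptake and trapping of glucose came first. *Slc2a1* encodes GLUT1, the glucose transporter found on most cell types. In the PBS libraries, in title order, *Slc2a1* stood at 95.8, 110.0, 116, 113 and 132 CPM, and in the GA libraries at 110.4, 104, 117, 128 and 104 CPM. The lowest and the highest of the 10 values, in 388_1 and 388_5, were both in the PBS group, and the GA values lay between them. The group means were 113 ± 12.8 CPM in PBS and 113 ± 9.95 CPM in GA (SD, n = 5 each), and the fitted difference of GA from PBS was -0.471% with a 95% interval from -12.5% to 13.2% (log2 fold change -0.0068 ± 0.087 SE, edgeR adjusted p = 0.996, unadjusted p = 0.939). *Hk2* encodes hexokinase 2, an inducible form that can bind the outer membrane of mitochondria. *Hk2* was measured at 179, 158, 187, 134 and 198 CPM in PBS and at 148, 183, 197, 186 and 188 CPM in GA. The values of 388_4 and 394_1 were low and the other 8 lay between 158 and 198 CPM, so that each group held 1 low library. The group means were 171 ± 25.3 CPM in PBS and 180.5 ± 18.7 CPM in GA (SD, n = 5 each), and the fitted difference of GA from PBS was 5.38% with a 95% interval from -9.66% to 22.9% (log2 fold change 0.076 ± 0.10 SE, edgeR adjusted p = 0.952, unadjusted p = 0.478). The GA libraries with the prefix 400 had a mean of 190.2 CPM and those with the prefix 394 one of 166 CPM (edgeR adjusted p = 0.519 for the difference between the prefixes). The lowest p of the 10 genes in this comparison was that of *Gapdh*, with means of 261 CPM for prefix 400 and 235 CPM for prefix 394 (edgeR unadjusted p = 0.0430, adjusted p = 0.475).

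The committing and splitting steps are those of *Pfkl*, the liver-type phosphofructokinase, and *Aldoa*, the main aldolase of most tissues. The 5 PBS values of *Pfkl* were 218, 204, 234, 229.8 and 245 CPM, and the 5 GA values were 188, 223, 204, 224 and 209 CPM. The lowest value, in 394_1, was below all PBS values, and the other 4 GA values lay within the PBS range. With means of 226 ± 15.6 CPM in PBS and 209.7 ± 14.8 CPM in GA (SD, n = 5 each), edgeR fitted a difference of -7.23% with a 95% interval from -16.3% to 2.85% (log2 fold change -0.11 ± 0.069 SE, edgeR adjusted p = 0.895, unadjusted p = 0.141). *Pfkl* had the most negative difference of the 10. In the PBS libraries, in title order, *Aldoa* stood at 414, 402, 422, 472 and 489.8 CPM, and in the GA libraries at 439.7, 461, 459, 496 and 450.3 CPM. The PBS libraries fell into 3 with 402 to 422 CPM and 2 with 472 and 490 CPM, and 4 of the GA values lay between these while 400_2 exceeded them all. With means of 440.1 ± 38.4 CPM in PBS and 461 ± 21.1 CPM in GA (SD, n = 5 each), edgeR fitted a difference of 4.76% with a 95% interval from -5.22% to 15.8% (log2 fold change 0.067 ± 0.067 SE, edgeR adjusted p = 0.940, unadjusted p = 0.336).

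The lower part of the pathway, in which ATP is gained, begins with *Gapdh*, glyceraldehyde-3-phosphate dehydrogenase, a gene often used as a reference in RT-PCR. *Gapdh* was measured at 218, 211, 237, 308 and 273 CPM in PBS and at 232, 237, 258, 274 and 251 CPM in GA. All 5 GA values lay inside the PBS range, whose extremes were 388_2 and 388_4. Means were 249.7 ± 40.7 CPM in PBS and 250.5 ± 16.5 CPM in GA (SD, n = 5 each), which gave a fitted difference of 0.346% with a 95% interval from -13.2% to 16.0% (log2 fold change 0.0050 ± 0.10 SE, edgeR adjusted p = 0.997, unadjusted p = 0.960). The largest estimated difference of the 10 belonged to *Pgk1*, phosphoglycerate kinase 1, the first ATP-yielding enzyme. The 5 PBS values of *Pgk1* were 22.1, 23.2, 20.5, 26.0 and 28.1 CPM, and the 5 GA values were 27.1, 24.2, 27.5, 28.5 and 28.8 CPM. The GA values of 400_2 and 400_3 exceeded every PBS value, while 388_5 stood above the other 3 GA libraries. Means were 23.96 ± 3.07 CPM in PBS and 27.2 ± 1.82 CPM in GA (SD, n = 5 each), which gave a fitted difference of 13.6% with a 95% interval from -2.06% to 31.8% (log2 fold change 0.18 ± 0.10 SE, edgeR adjusted p = 0.894, unadjusted p = 0.0864). A two-sided exact permutation test on the same values gave p = 0.0714, where 5 against 5 libraries can reach 0.00794. *Eno1*, enolase 1, makes phosphoenolpyruvate. In the PBS libraries, in title order, *Eno1* stood at 255, 236, 253, 316 and 301 CPM, and in the GA libraries at 268, 265, 259.6, 276 and 263 CPM. The GA values ran only from 259.6 to 276 CPM and all lay inside the PBS range, in which 388_4 and 388_5 stood above every GA library and the other 3 below. The group means were 272 ± 34.5 CPM in PBS and 266 ± 6.23 CPM in GA (SD, n = 5 each), and the fitted difference of GA from PBS was -2.09% with a 95% interval from -12.96% to 10.1% (log2 fold change -0.030 ± 0.079 SE, edgeR adjusted p = 0.976, unadjusted p = 0.706).

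*Pkm* encodes the M form of pyruvate kinase, which closes the pathway, and the count table does not tell its M1 and M2 splice forms apart. *Pkm* was measured at 301, 308, 343, 364 and 379.8 CPM in PBS and at 341, 366, 368, 390.1 and 377 CPM in GA. The values of 388_1 and 388_2 were below all others, and 400_2 was the highest. The group means were 339 ± 34.6 CPM in PBS and 368 ± 17.9 CPM in GA (SD, n = 5 each), and the fitted difference of GA from PBS was 8.67% with a 95% interval from -2.55% to 21.2% (log2 fold change 0.12 ± 0.073 SE, edgeR adjusted p = 0.895, unadjusted p = 0.124). *Ldha* encodes the lactate dehydrogenase subunit that favours the making of lactate. The 5 PBS values of *Ldha* were 242, 234, 259.7, 289 and 305 CPM, and the 5 GA values were 252, 278, 252, 276 and 279 CPM. As for *Eno1*, all 5 GA values lay inside the PBS range. With means of 266 ± 30.3 CPM in PBS and 268 ± 14.1 CPM in GA (SD, n = 5 each), edgeR fitted a difference of 0.609% with a 95% interval from -10.4% to 13% (log2 fold change 0.0088 ± 0.078 SE, edgeR adjusted p = 0.993, unadjusted p = 0.912). *Slc16a3* encodes MCT4, a lactate exporter of glycolytic cells. In the PBS libraries, in title order, *Slc16a3* stood at 88.4, 104, 105, 107 and 120.4 CPM, and in the GA libraries at 98.4, 97.6, 95.8, 108 and 95.5 CPM. In GA 4 of the values were between 95.5 and 98.4 CPM and 400_2 stood at 108 CPM, all of them inside the PBS range. With means of 105 ± 11.4 CPM in PBS and 99.1 ± 5.21 CPM in GA (SD, n = 5 each), edgeR fitted a difference of -5.71% with a 95% interval from -16.1% to 6.03% (log2 fold change -0.085 ± 0.079 SE, edgeR adjusted p = 0.937, unadjusted p = 0.301).

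**Figure D2:**
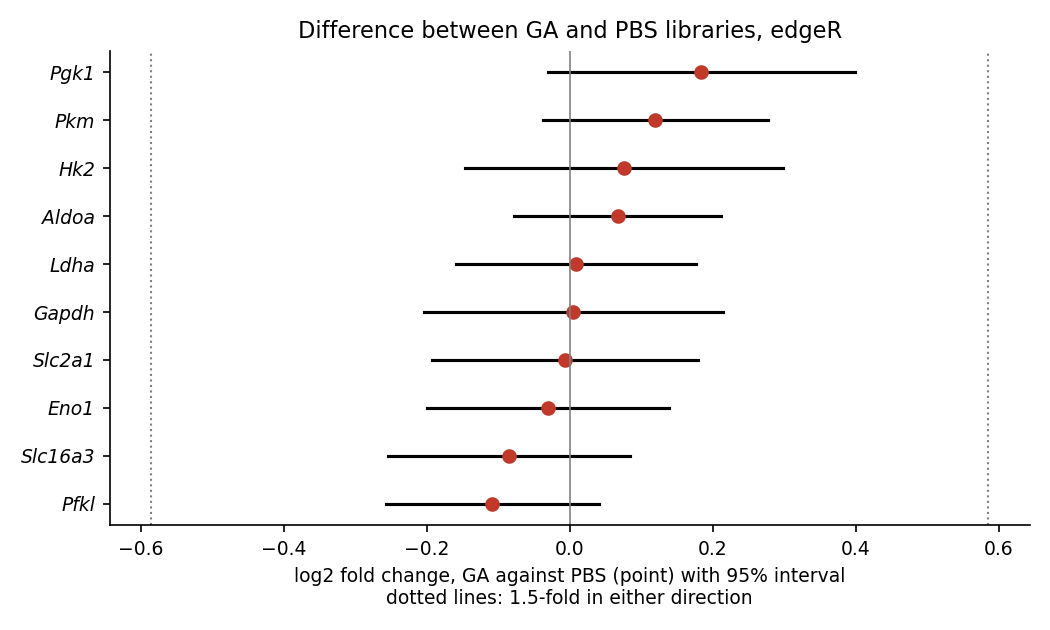
Log2 fold change of GA against PBS fitted by edgeR (points, horizontal axis) with its 95% interval (lines) for each of the 10 genes, 5 libraries a group, with dotted lines at a 1.5-fold change either way. Every interval holds 0 and stays inside the dotted lines, and the estimates run from -0.11 for Pfkl to 0.18 for Pgk1.

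No gene of the 10 was called in any fit that left out a library, but some unadjusted p-values did depend on single libraries. Without 388_5, the PBS library with the highest values, *Pgk1* and *Pkm* came to an unadjusted p under 0.05 and higher in GA, in a fit in which 7.72% of all genes had an unadjusted p under 0.05. With the second number of the title as a replicate block, which removes 388_4 and 388_5 from the comparison because no GA library carries the numbers 4 and 5, the same was true of *Aldoa*, *Gapdh*, *Ldha*, *Pgk1* and *Pkm*, beside 6.79% of all genes. The lowest adjusted p of any of the 10 genes in any of the 21 fits was 0.5996.

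The genes varied together from library to library. When the log2 CPM of each gene was turned into a z-score over the 10 libraries, the mean over the 10 genes was -1.02 in 388_1, -0.99 in 388_2, -0.22 in 388_3, 0.54 in 388_4 and 1.28 in 388_5. In the GA libraries it was -0.51 in 394_1, -0.02 in 394_2, 0.06 in 400_1, 0.81 in 400_2 and 0.08 in 400_3. The PBS group thus held both ends of the scale. In 388_5 and in 400_2 all 10 genes were above their own mean, and in 388_2 and in 394_1 only 1 was. Over the 10 libraries, 41 of the 45 pairs of genes had a positive Pearson r, 27 had an r above 0.5 and the median r was 0.52. Over all pairs of the 6289 tested genes at or above the mean level of *Pgk1* the median r was 0.0080. *Aldoa*, *Ldha* and *Pkm* followed the others most closely, with a mean r of 0.66, 0.63 and 0.62. *Hk2* did so least, with a mean r of 0.095. With 388_4 and 388_5 left out the median r was 0.47, and without 388_5 alone it was 0.37. These correlations describe 10 libraries that share their preparation and scaling. The gene outside the lists whose log2 CPM was most like the mean z-score was *Slc26a2* (r = 0.96), a sulphate transporter, followed by *Grn* (r = 0.96), which encodes progranulin, *Adipor1* (r = 0.95), an adiponectin receptor, *Sec23a* (r = 0.94), a coat protein of vesicles leaving the endoplasmic reticulum, and *Leprot* (r = 0.92), all over 10 libraries and picked as the highest of all genes tested.

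**Figure D3:**
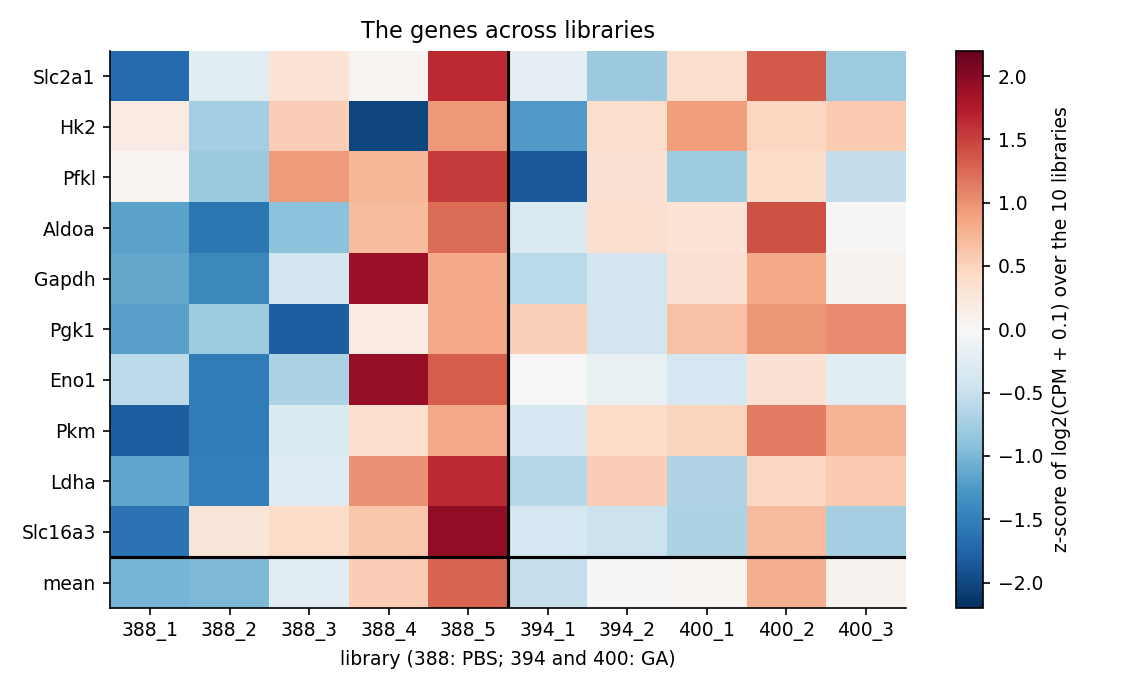
Z-score of log2(CPM + 0.1) over the 10 libraries (colour scale) for each of the 10 genes (rows) in each library (columns, PBS left and GA right of the line), with the mean over the genes in the bottom row. The columns of 388_1 and 388_2 are blue for most genes and that of 388_5 is red for all 10, and Hk2 departs from this in 388_4.

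The wider spread in PBS rested in large part on 388_4 and 388_5. For each of the 10 genes the SD of the CPM over all 5 libraries was higher in PBS than in GA, as it was for 69.1% of all genes tested. With both of these libraries left out it was higher in PBS for 5 of the 10 genes and for 48.9% of all genes, with a ratio of the SDs of 1.72 for *Eno1*. Over all libraries the ratio of the SDs was 5.54 for *Eno1*, 2.46 for *Gapdh*, 2.18 for *Slc16a3* and 2.14 for *Ldha*, and it was lowest for *Pfkl*, at 1.06. The 10 genes vary together and so are not 10 independent observations, and the difference in spread was not tested. Sums over marker lists of other cell types moved in part with the groups. The 12 neutrophil markers summed to 38.1 to 449 CPM in PBS and 11.03 to 171 CPM in GA, and of the 8 tested all 8 were lower in GA and 7 had an unadjusted p under 0.05 (lowest edgeR adjusted p = 0.847), beside 3.17% of all genes tested in that direction. *Mpo* and *Elane*, made by neutrophil precursors, were at or near 0 in all libraries, with at most 0.397 CPM. The 7 monocyte markers summed to 34.2 to 90.9 CPM in PBS and 36.6 to 51.2 CPM in GA. The 8 markers of border macrophages summed to 51.6 to 263 CPM in PBS, the highest in 388_4, and 51.1 to 201 CPM in GA. All these are small beside the 10 microglial markers, at 56188 to 66373 CPM in PBS and 57205 to 62012 CPM in GA. Over the 10 libraries the log2 sum of the neutrophil markers had an r of 0.16 with the mean z-score of the glycolytic genes, and over all 11 marker lists r ran from -0.35 for neuronal markers to 0.39 for endothelial and mural markers, with 0.32 for the microglial ones. The part of these cells in the glycolytic values was not tested.

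The level of different genes can be compared only per length. Divided by the merged exon length in GENCODE M21, the mean CPM per kb over the 10 libraries was 155 for *Aldoa*, 80.6 for *Ldha*, 70.8 for *Pkm*, 60.5 for *Gapdh*, 50.1 for *Eno1*, 32.6 for *Pfkl*, 32.2 for *Slc2a1*, 29.5 for *Hk2*, 19.2 for *Slc16a3* and 11.4 for *Pgk1*. In this order the enzymes of the lower part, other than *Pgk1*, stood above the transporters and the 2 regulated kinases. The ranges over libraries of neighbours in this order overlapped, except between *Aldoa* and *Ldha*, between *Eno1* and *Pfkl* and between *Slc16a3* and *Pgk1*. *Aldoa* was at the 98.6th percentile of all tested genes with a length and *Pgk1* at the 72.3rd. GENCODE M21 lists *Aldoa* under 2 gene IDs, and the length used is that of the ID with 12 transcripts.

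The order rests on the length measure, and for 3 of the enzymes also on how reads from near-identical copies were counted. Of the 100-base windows of the main protein-coding transcript, the length of a read, 78.1% of those of *Gapdh* occur unchanged in a transcript of at least 1 of 86 other genes, mostly processed copies. For *Pgk1* the share was 67.0%, through *Pgk1-rs7* and *Gm5537*, and for *Eno1* it was 59.0%, through *Eno1b* and *Gm4735*. It was 9.82% for *Pkm*, 1.32% for *Ldha*, 0.190% for *Slc2a1*, and 0% for *Hk2*, *Pfkl*, *Aldoa* and *Slc16a3*. Very few reads were counted on the copies. *Pgk1-rs7* and *Gm5537* had 0 counts in every library, *Gm4735* at most 5, and *Eno1b* 89 to 158, or 1.36% of the counts of *Eno1* over all libraries. The *Gapdh* copy *Gm2451* had 454 counts over all libraries, 413 of them in 388_5. Whether reads that fit several places were dropped is not given in the sources used here. Divided by the windows found in no other gene, as if all other reads had been dropped, *Gapdh* would lead with 862 CPM per kb of such windows, each counted as 1 base, followed by *Eno1* with 341, and *Pgk1* would move from the last place to the seventh with 45.0. The levels of these 3 enzymes relative to the others are therefore uncertain. A *Gm49759* transcript shares 767 exon bases with *Pkm* on the same strand, and it was counted 249 to 521 times per library, 3.03% of the counts of *Pkm*.

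**Figure D4:**
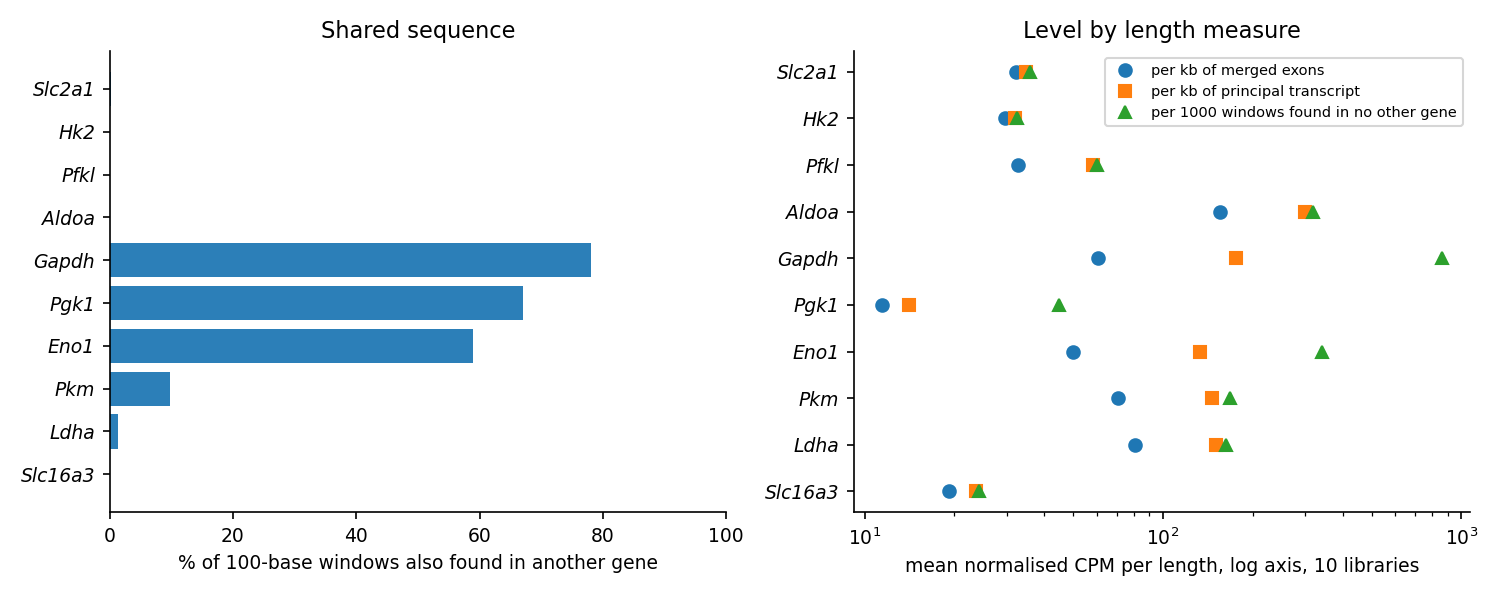
Left, the share of the 100-base windows of each gene's principal transcript that also occur in another gene (horizontal axis, percent). Right, mean normalised CPM over the 10 libraries per kb of merged exons (circles), per kb of principal transcript (squares) and per kb of windows found in no other gene, each counted as 1 base (triangles), on a log axis. The 3 genes with 59.0% or more shared windows, Gapdh, Pgk1 and Eno1, are those whose triangles lie farthest from their squares.

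For the lactate dehydrogenase and hexokinase steps the gene chosen was not the most abundant form in these cells. Shares were taken of the summed length-corrected CPM of the genes for the same step, or of the same transporter family. Of the lactate dehydrogenase transcripts, the share of *Ldha* was 16.7, 18.01, 19.3, 20.7 and 20.3% in the PBS libraries and 18.01, 21.4, 17.3, 20.1 and 19.2% in the GA libraries. The remainder was *Ldhb*, the subunit that favours the making of pyruvate from lactate, and per kb it exceeded *Ldha* in 10 of 10 libraries, by 3.68 to 4.99 times. With the length of the main transcript the ratio was 2.36 to 3.21. *Ldhb* itself stood at 572, 506, 515, 526 and 567 CPM in the PBS libraries and 545, 486, 570.2, 521 and 556 CPM in the GA libraries, with the groups overlapping (log2 fold change -0.0043 ± 0.063 SE, edgeR adjusted p = 0.997).

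Among hexokinases, *Hk3*, a form found mainly in myeloid cells, took the larger share. The share of *Hk2* was 30.9, 31.8, 35.4, 27.2 and 37.0% in the PBS libraries and 28.8, 32.7, 34.0, 34.7 and 34.6% in the GA libraries, and that of *Hk3* ran from 54.4% to 65.1%. *Hk3* stood at 192 ± 16.2 CPM in PBS and 196 ± 9.39 CPM in GA (SD, n = 5 each) and exceeded *Hk2* per kb in 10 of 10 libraries, by 1.47 to 2.40 times. The library with the lowest share of *Hk2*, 388_4, was the one in which its CPM was lowest too. *Hk1*, the form of most tissues, took 7.14% to 11.2%, or 13.2% to 19.8% with the length of the main transcript, while *Hkdc1* took at most 0.0768%.

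In the transporter family *Slc2a5*, which encodes the fructose transporter GLUT5 and is known as a microglial gene in the brain, outweighed *Slc2a1* by 10.6 to 16.1 times per kb. It took 83.1% to 86.6% of the 6 hexose transporter transcripts counted, against 5.39% to 7.86% for *Slc2a1*. Because GLUT5 carries fructose, these shares do not rank the forms for glucose uptake. Per kb of merged exons the mean over the 10 libraries was 32.2 CPM for *Slc2a1* and 2.28 CPM for *Slc2a3*. *Slc2a8* took 6.33% to 7.88%, *Slc2a3*, the glucose transporter of neurons, at most 0.801%, or 1.31% with the length of the main transcript, and the insulin-regulated *Slc2a4* was at or near 0. Per kb of merged exons, *Slc2a1* and *Slc2a8* had overlapping levels, at 32.2 ± 3.08 and 33.4 ± 2.33 CPM (SD, n = 10). Per kb of the main transcript they did not overlap, *Slc2a1* running from 29.4 to 40.3 CPM and *Slc2a8* from 46.4 to 56.2 CPM.

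For the other steps the chosen gene was the main form. *Pfkl* took 89.98% to 94.1% of the phosphofructokinase transcripts and *Pfkm*, the muscle type, most of the rest. *Aldoa* took at least 99.5% of the aldolase transcripts and *Gapdh* 99.3% to 99.87% of the transcripts for its step. *Pgk2*, the testis form, and *Pklr*, the liver and red cell pyruvate kinase, were at 0 in all libraries. *Eno1* took 74.5% to 84.1%, with *Eno3*, the muscle form, at 15.4% to 24.8%, and these shares carry the uncertainty of *Eno1* given above. With the length of the main transcript in place of all exons, *Eno1* exceeded *Eno3* by 7.17 to 13.1 times, against 3.00 to 5.47 times. Of the lactate transporters *Slc16a3* took 53.3% to 61.2%, *Slc16a1*, which encodes MCT1, 25.7% to 32.7%, and *Slc16a7*, which encodes MCT2, the remainder. *Bsg*, the partner protein that MCT1 and MCT4 need to reach the membrane, stood at 439 ± 40.0 CPM in PBS and 458 ± 16.3 CPM in GA (SD, n = 5 each).

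**Figure D5:**
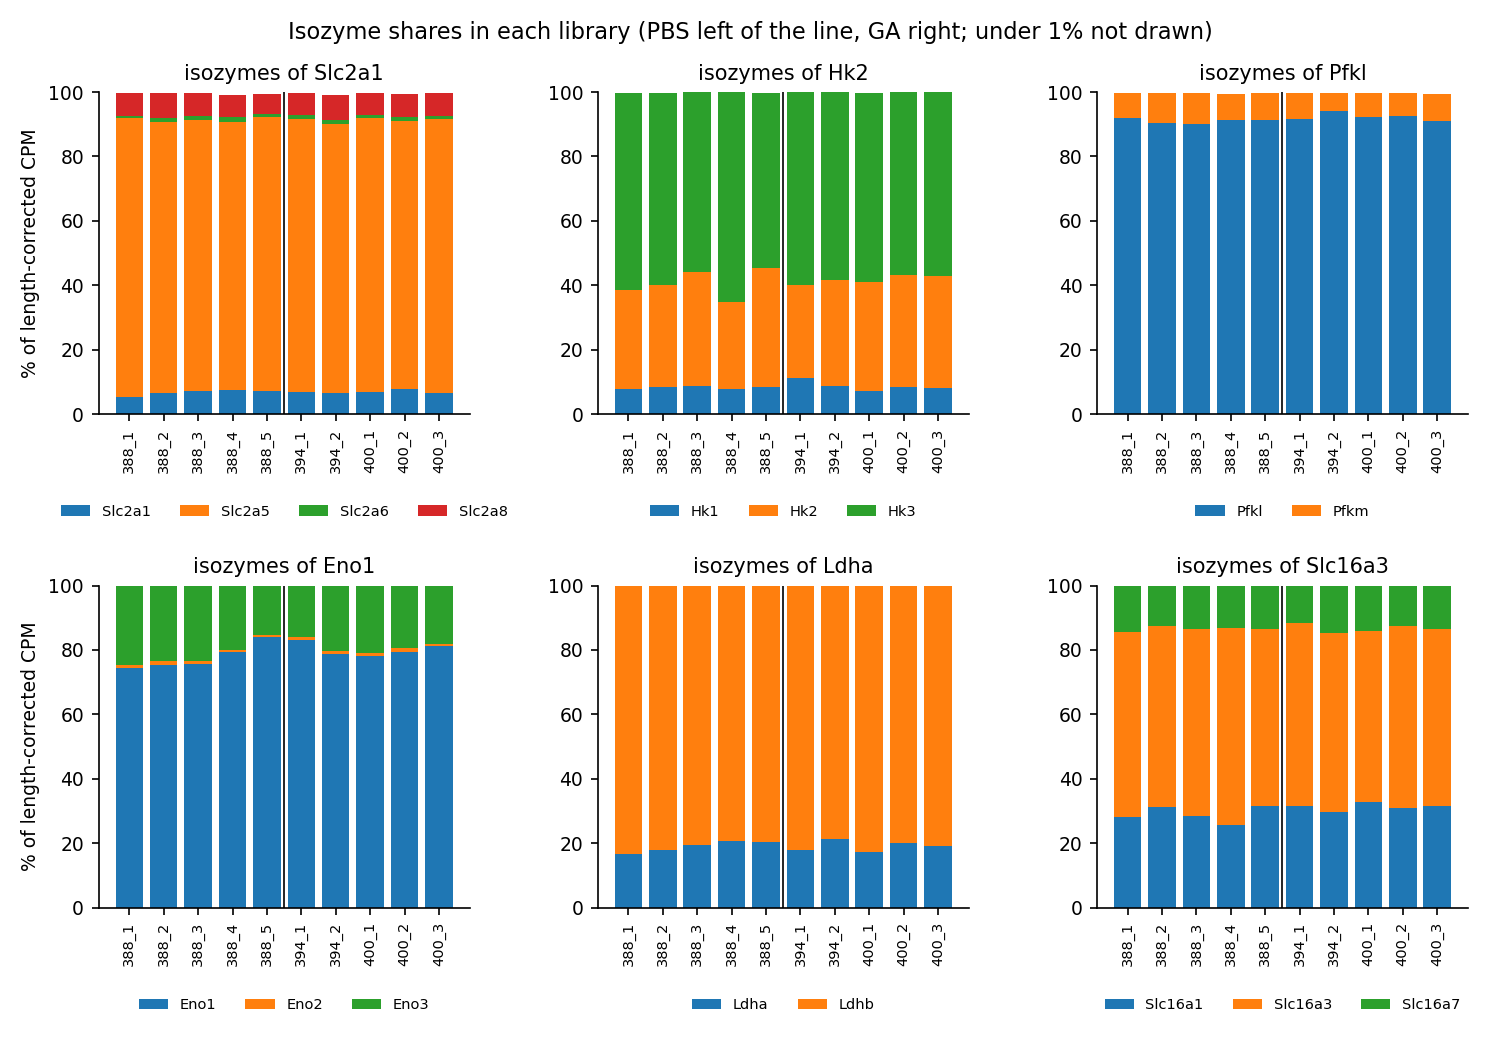
Share of each gene in the summed length-corrected CPM of its family (vertical axis, percent) in each library (horizontal axis), for 6 of the families. Ldhb, Hk3 and Slc2a5 take the larger part in all 10 libraries, and Pfkl, Eno1 and Slc16a3 lead their families. Slc2a5 encodes a fructose transporter, so its share does not bear on the forms for glucose uptake.

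No share passed the test for a difference between the groups after adjustment. The difference of group means, GA minus PBS, was 0.20 percentage points for *Ldha*, 0.52 for *Hk2* and 0.20 for *Slc2a1*. It was 1.37 for *Pfkl*, 2.30 for *Eno1* and -2.21 for *Slc16a3*. For *Eno1* it was 1.24 with the length of the main transcript and 0.94 without correction for length. The shares of *Pgk1* and *Pkm* were 100% in every library and could not differ. None of the other 8 shares had p under 0.05 in a two-sided exact permutation test, the lowest being p = 0.0556 for *Pfkl* and p = 0.103 for *Slc16a3* (adjusted p = 0.516 over the 10 shares for both). Some unadjusted values passed 0.05 under other settings. For *Pfkl* the exact permutation p was 0.0476 with the length of the main transcript and 0.0238 without 400_3, and for *Slc16a3* it was 0.0317 without 388_5, with adjusted p-values of 0.476, 0.238 and 0.198.

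The other genes of the pathway were read from a list of 28 isozymes and further glycolytic genes, of which 22 were tested. By sign 12 were higher and 10 lower in GA, with a median log2 fold change of 0.012, and 1 had an unadjusted p under 0.05. This was *Pfkm*, at 9.45, 10.6, 12.5, 10.2 and 11.3 CPM in the PBS libraries and 8.45, 6.79, 8.43, 8.68 and 9.83 CPM in the GA libraries. Of its GA values 4 were below all PBS values and only 400_3, at 9.83 CPM, was inside their range (log2 fold change -0.36 ± 0.13 SE, edgeR unadjusted p = 0.0179, adjusted p = 0.847). *Tpi1*, triosephosphate isomerase, which stands between aldolase and *Gapdh* in the pathway, was at 152 ± 14.0 CPM in PBS and 168 ± 10.2 CPM in GA (SD, n = 5 each), a log2 fold change of 0.14 ± 0.074 SE (edgeR unadjusted p = 0.0842, adjusted p = 0.894). Isozymes lower by sign had p-values of the same size, *Eno3* with a log2 fold change of -0.24 ± 0.13 SE (edgeR unadjusted p = 0.0823) and *Pfkp*, the platelet-type phosphofructokinase, with one of -0.72 ± 0.39 SE (edgeR unadjusted p = 0.0847) at means of 1.99 CPM in PBS and 1.20 CPM in GA. *Gpi1*, the isomerase before phosphofructokinase, had a log2 fold change of -0.030 ± 0.096 SE, and *Pgam1*, phosphoglycerate mutase, one of 0.017 ± 0.091 SE.

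Genes that set the rate of glycolysis were read from a list of 19, of which 18 were tested. By sign 14 were higher and 4 lower in GA, with a median log2 fold change of 0.027, and 1 had an unadjusted p under 0.05. *Pfkfb4*, one of the enzymes that make or remove an activator of phosphofructokinase, stood at 106, 99.0, 107, 108 and 93.4 CPM in the PBS libraries and 129, 128, 124, 119 and 104 CPM in the GA libraries. In the GA group 4 of the values exceeded all PBS values and 400_3 lay inside their range (log2 fold change 0.23 ± 0.074 SE, edgeR unadjusted p = 0.00728, adjusted p = 0.847). *Pfkfb3*, the family member best known for raising glycolysis, was at 128 ± 13.4 and 129.5 ± 11.8 CPM (SD, n = 5 each), a log2 fold change of 0.018 ± 0.085 SE. *Hif1a*, the regulated subunit of HIF-1, was at 196, 199, 226, 196 and 267 CPM in the PBS libraries and 217, 240.0, 253, 293 and 245 CPM in the GA libraries. Its highest values in either group were in 388_5 and 400_2, the libraries with the highest mean z-score (log2 fold change 0.20 ± 0.098 SE, edgeR unadjusted p = 0.0566, adjusted p = 0.872). In 388_4, whose mean z-score of 0.54 came next, *Hif1a* was at 196 CPM, close to its lowest value. Whether *Hif1a* and the glycolytic genes varied together was not tested. *Txnip*, which restrains glucose uptake, had a log2 fold change of -0.0075 ± 0.058 SE, and *Fbp1*, of the reverse pathway, which had the smallest p among the genes lower in GA, one of -0.49 ± 0.70 SE at group means of 0.393 CPM in PBS and 0.282 CPM in GA.

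HIF-1 targets outside glycolysis were tested for 15 of 17 genes on the list. By sign 7 were higher and 8 lower in GA, with a median log2 fold change of -0.0072, and none had an unadjusted p under 0.05. Among the higher genes the smallest p was that of *Ero1l* (log2 fold change 0.19 ± 0.11 SE, edgeR unadjusted p = 0.112), an oxidase of the endoplasmic reticulum. *Vegfa*, the angiogenic factor, was at 2.42 ± 1.76 and 1.75 ± 0.403 CPM (SD, n = 5 each).

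Beyond pyruvate, 13 of 14 genes of its entry into the mitochondrion were tested, 9 higher and 4 lower by sign in GA, with a median log2 fold change of 0.059. *Pcx*, pyruvate carboxylase, which turns pyruvate into oxaloacetate, was the only one with an unadjusted p under 0.05. It stood at 16.8, 14.9, 12.9, 14.0 and 15.3 CPM in the PBS libraries and 18.9, 19.4, 16.7, 16.5 and 18.1 CPM in the GA libraries. In GA 3 of the 5 values exceeded all PBS values (log2 fold change 0.28 ± 0.10 SE, edgeR unadjusted p = 0.0173, adjusted p = 0.847). Among the lower genes the smallest p was that of *Mpc1*, a subunit of the mitochondrial pyruvate carrier (log2 fold change -0.11 ± 0.11 SE, unadjusted p = 0.346), and *Pdk4*, a kinase that shuts off pyruvate dehydrogenase, was at 0 in all libraries. All 8 genes of the pentose phosphate pathway, the branch that yields NADPH, were tested, 5 higher and 3 lower by sign, and none had an unadjusted p under 0.05. *Rpia*, ribose-5-phosphate isomerase, had the smallest p among the higher genes (log2 fold change 0.54 ± 0.28 SE, edgeR unadjusted p = 0.0756) and *Pgls*, 6-phosphogluconolactonase, among the lower ones (-0.088 ± 0.069 SE, unadjusted p = 0.221). Of the 76 genes tested on these 5 lists 3 (*Pfkm*, *Pfkfb4* and *Pcx*) thus had an unadjusted p under 0.05, or 3.95%, beside 5.75% of all genes tested.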

How the data were processed

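Per the labels and the study's methods, cDNA of sorted microglia was made with SMARTer v4, libraries with Nextera XT, which keeps no strand, and single-end reads of 100 nt were sequenced. The submitters' processing notes name bcl2fastq 2.19.0, fastp 0.20.0, STAR 2.7.0f, Subread 1.6.4 with featureCounts, DESeq2 and GRCm38.p6. The annotation release and the treatment of multi-mapping reads are not given in the sources used here. The authors deposited raw counts of reads per gene symbol, without normalization. Genes were filtered with filterByExpr (minimum count 10), scaled by TMM and tested with edgeR 4.0.16's quasi-likelihood F-test (R 4.3.3), GA against PBS without covariates, with Benjamini-Hochberg adjustment over 14481 genes and a threshold of 0.05. For single values, log2(CPM + 0.1) was permuted exactly over the libraries (two-sided), and intervals are at 95%. Over the 45 pairs of libraries the chi-square per degree of freedom was 13.01 to 50.9, so no library was a duplicate. Lengths and shared 100-base windows came from GENCODE M21, promoters from RefSeq. The 10 genes, given as a list of names, and the other lists were chosen with earlier results of these data known. Named were the 10 genes, their isozymes and copies, in the 4 lists of control, pyruvate, pentose phosphate and HIF-1 genes those with unadjusted p under 0.05 and the smallest p in each direction, and the 5 genes most like the mean z-score. *Tpi1*, *Gpi1*, *Pgam1*, *Bsg*, *Txnip*, *Vegfa*, *Pfkfb3*, *Hif1a* and *Pdk4* fall outside this rule and were added after their values were seen. Some items that this rule would name are not reported here. The alternatives were DESeq2 1.42.0, limma-voom (limma 3.58.1), robust fits, other scalings and filters, each library left out, either GA title prefix alone, the title number as a block and other length measures, and, chosen after seeing the data, the spread and the correlations without 388_4 and 388_5. The scripts were tested on simulated data.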

Additional observations from a re-analysis of the deposited data

Results flagged for a closer look

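In 36 groups of 5 libraries, covering the CPM of the 10 genes and those of their isozyme shares that varied, the library farthest from the others was compared with the range of its group by Dixon's criterion, which chance meets in about 1 of 20 groups. It was met by 3 values, all in the GA group. *Hk2* was low in 394_1, at 148 CPM, while the other 4 GA libraries ran from 183 to 197 CPM. *Slc16a3* was high in 400_2, at 108 CPM, while the other 4 ran from 95.5 to 98.4 CPM. The share of *Slc2a1* among the hexose transporters was also high in 400_2, at 7.86%, while the other 4 GA libraries ran from 6.51% to 6.85%. 400_2 was the GA library with the highest mean z-score of the glycolytic genes, and 394_1 the one with the lowest.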

How the results depend on the processing

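Over 20 alternatives none of the 10 genes was called at an adjusted p under 0.05. DESeq2 called 2 genes of the whole table, edgeR 0 to 1 with a library left out, and edgeR's main fit 0. The number of glycolytic genes with an unadjusted p under 0.05 and higher in GA was 0, and 0 to 2 with a library left out, the 2 being *Pgk1* and *Pkm* without PBS replicate 5. With the title number as a replicate block it was 5 and the median log2 fold change of the 10 genes was 0.12, beside 0.0052 over all genes. Nothing in the labels says that the numbers pair the libraries. Deviations from the group means correlated between -0.109 and 0.0438 for the 5 pairs with the same number. For pairs with different numbers they correlated between -0.109 and 0.0667. The block also removes 388_4 and 388_5 from the comparison. *Pfkl*, *Aldoa*, *Pgk1* and *Pkm* kept the sign of their difference in all 20 alternatives, but not its size. With a library left out, the log2 fold change ran from -0.14 to -0.071 (without GA replicate 1) for *Pfkl*, 0.037 (without PBS replicate 2) to 0.11 (without PBS replicate 5) for *Aldoa*, 0.13 to 0.25 for *Pgk1*, 0.080 (without PBS replicate 1) to 0.17 for *Pkm* and -0.14 (without PBS replicate 1) to -0.026 (without PBS replicate 5) for *Slc16a3*. It ran from -0.061 to 0.057 for *Slc2a1*, -0.00011 to 0.14 for *Hk2*, -0.049 to 0.092 for *Gapdh*, -0.078 to 0.029 for *Eno1* and -0.033 to 0.067 for *Ldha*, so that the sign changed. With the replicate block *Slc2a1* was at 0.075, *Eno1* at 0.11 and *Slc16a3* at 0.0037, while *Pfkl* was at -0.053, *Aldoa* at 0.16, *Gapdh* at 0.18, *Pgk1* at 0.31, *Pkm* at 0.23 and *Ldha* at 0.14. Without a filter on low counts *Slc2a1* was at 0.0030, and with the GA libraries of prefix 400 alone at 0.045. With those of prefix 394 alone *Hk2* was at -0.041, *Gapdh* at -0.081, *Aldoa* at 0.039, *Pgk1* at 0.105 and *Pkm* at 0.067. The cause was not tested. Differences in isozyme share, in percentage points, ran with a library left out from -0.14 to 0.35 for *Slc2a1*, -0.79 to 1.66 for *Hk2*, -0.064 to 0.089 for *Gapdh* and -0.38 to 0.67 for *Ldha*, so that these signs rest on single libraries. They ran from 0.91 (without GA replicate 2) to 1.69 for *Pfkl*, from 1.47 (without PBS replicate 1) to 3.86 (without PBS replicate 5) for *Eno1* and from -2.87 to -1.32 (without PBS replicate 4) for *Slc16a3*. In the order of levels per length 8 genes kept their place with the longest transcript, 7 with the principal transcript and 1 with the windows found in no other gene; the last 2 length measures were chosen after seeing the data. With a library left out, the SD was higher in PBS for 8 to 10 of the 10 genes, and for 5 with both 388_4 and 388_5 left out. Depth did not limit these genes, since each was counted at least 671 times, and whether reads of *Gapdh*, *Pgk1* and *Eno1* were lost to their copies was not tested.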
